A study of Caenorhabditis elegans with 4 samples.

Results

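The histone genes of *C. elegans* were taken as all genes whose symbol begins with his-. This gave 72 genes of the 46746 to which the listed transcripts could be summed, and all 72 were present in the count table. No measured value entered this choice. The class was, however, taken up with results of this food comparison already known, so the numbers of genes past a threshold below are a description and not independent evidence. By type, 17 genes encode H2A, 17 encode H2B, 15 encode H3, 16 encode H4, 3 encode the replacement histone H3.3, 3 are H3-like and 1, *his-24*, encodes a linker histone H1. The types came from general knowledge of the gene names and were checked against the annotated coding lengths, which are usually 127 residues for H2A, 123 for H2B, 136 for H3 and H3.3, 103 for H4 and 208 for HIS-24. Of the 72 genes, 68 had the length of their type within 1 residue. The exceptions were *his-39*, *his-69*, *his-70* and *his-73*.

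Animals of the wild-type Bristol strain N2 were fed *E. coli* OP50, the standard laboratory food, or *L. paracasei* subsp. *paracasei* 2004, a lactic acid bacterium. Feeding began on Day 1 of adulthood and lasted 3 days, and total RNA of pools of entire animals was sequenced in 2 samples per food. The study's methods give NGM plates, whereas the labels give S basal medium. Neither source says that the 2 samples of a food were separate cultures, so p-values measure the spread between these samples, which may be technical. Library totals ranged from 44548901 to 50504029 counts. Levels are given as CPM, counts divided by the library's total and scaled to 1e6, on which scale 3 counts are 0.0594 to 0.0673 CPM.

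Core histones form the protein spool around which DNA is wound, H3 pairing with H4 and H2A with H2B, and linker histones bind the DNA that enters and leaves it. In animals, most core histone genes have no introns, are made during S phase when new DNA is packaged, and yield mRNAs that end in a stem-loop in place of a poly(A) tail. Replacement histones such as H3.3 come from genes with introns and polyadenylated mRNAs and are deposited outside S phase. In adult hermaphrodites the somatic cells no longer divide, and DNA is replicated in the germline and in the embryos that the animals carry.

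In the annotation, 64 of the 72 genes consisted of a single coding exon with no annotated UTR. Another 7 had introns and UTRs, namely *his-24*, *his-35*, *his-37*, *his-41*, *his-71*, *his-72* and *his-74*, and *his-57* had transcripts of both kinds. The genes lay in 19 loci, defined as groups of members within 5 kb of each other, and 14 of these held more than 1 member. Most members stood head to head with a partner, which gave 31 divergent pairs with a median of 258 bases (227 to 368) between the annotated genes, an interval that runs between coding starts except where a gene has an annotated 5′ UTR. Of these, 16 joined an H2A gene to an H2B gene, 14 joined an H3 gene to an H4 gene, and the remaining 1 joined *his-67* (H4) to *his-68* (H2A).

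Total histone mRNA differed between the foods by less than the spread between samples. The summed level of the 72 genes was 1032 and 958 CPM in the OP50 samples and 1024 and 948 CPM in the 2004 samples, or 995 ± 52.1 against 986 ± 53.2 CPM (SD, n = 2 each). The single-exon genes within this sum were lower with 2004. The 64 single-exon genes summed to 215 and 177 CPM with OP50 and to 98.6 and 90.9 CPM with 2004, which is 196 ± 27.1 against 94.8 ± 5.4 CPM (SD, n = 2 each), a 2.07-fold lower sum with 2004. The 7 genes with introns summed to 812 and 778 CPM with OP50 and to 923 and 855 CPM with 2004. The higher sum of the genes with introns rested on *his-24*. Without it, the other 6 summed to 771 and 748 CPM with OP50 and to 758 and 794 CPM with 2004, and the foods overlapped. For the single-exon genes both 2004 samples were below both OP50 samples, and these genes held 20.8% and 18.4% of all histone counts with OP50 against 9.63% and 9.59% with 2004. These are levels in whole animals, in which fewer cells of a type and less RNA per cell cannot be told apart. The sources used here do not say whether poly(A) RNA was selected or ribosomal RNA removed before sequencing. Of other RNA classes that mostly lack a poly(A) tail, some were lower with 2004 and some were not. Genes annotated as rRNA summed to 6408 and 9198 CPM with OP50 and 4549 and 4448 CPM with 2004, and snRNA genes to 1.66 and 2.55 CPM against 0.690 and 0.626 CPM. Genes annotated as snoRNA did not follow, with 28.3 and 30.3 CPM with OP50 and 37.1 and 31.4 CPM with 2004, and tRNA genes overlapped between the foods, with 1.41 and 2.04 against 1.47 and 1.38 CPM. The part of library preparation in the histone values was not tested.

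**Figure D1:**
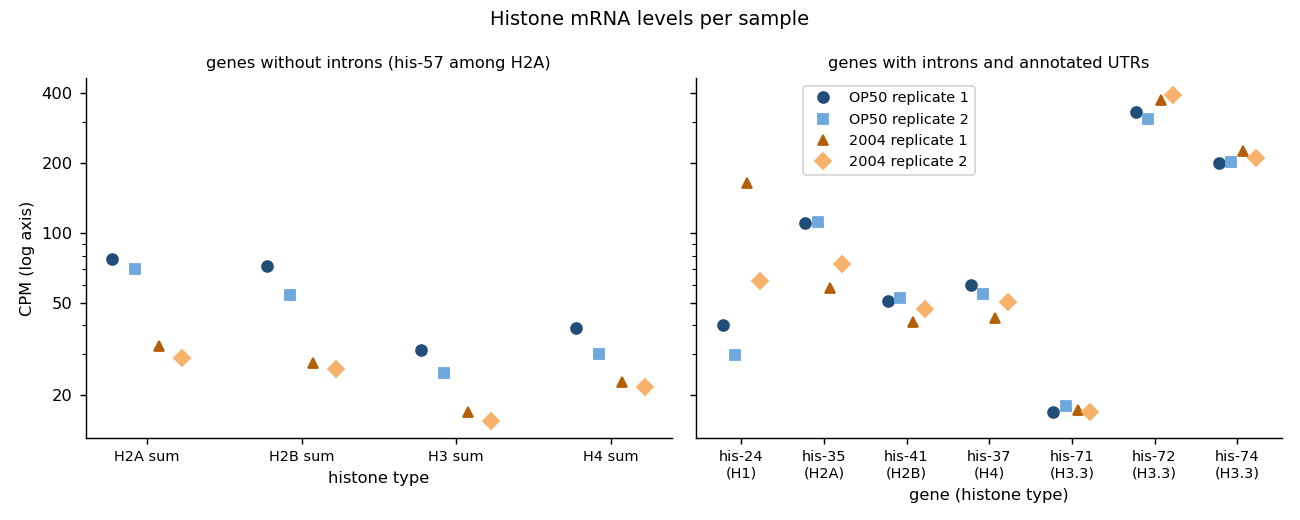
Summed CPM of the intronless H2A, H2B, H3 and H4 genes (left) and CPM of the 7 genes with introns and annotated UTRs (right) in each of the 4 samples, on a log axis, with 1 point per sample. In each of the 4 intronless sums both 2004 samples lie below both OP50 samples, whereas *his-72* and *his-74* lie slightly higher with 2004 and *his-24* is spread widely among the 2004 samples.

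Among the core types, the summed intronless H2A and H2B genes had the largest ratios between the foods, and for H2A this rested on a few genes of chromosome V described below. The intronless H2A genes, *his-57* included, summed to 77.3 and 70.2 CPM with OP50 and 32.7 and 28.8 CPM with 2004, a 2.40-fold lower mean. The intronless H2B genes summed to 72.1 and 54 CPM with OP50 and 27.6 and 26 CPM with 2004, a 2.35-fold lower mean. The same sums were 31.2 and 24.8 CPM against 16.9 and 15.4 CPM for H3, which is 1.74-fold lower, and 38.9 and 30.1 CPM against 22.8 and 21.8 CPM for H4, which is 1.55-fold lower. Without the *his-50* to *his-53* and *his-28* to *his-18* loci of chromosome V, the H2A sum was 1.53-fold lower with 2004, H2B 1.94-fold, H3 1.61-fold and H4 1.55-fold. Since near-identical copies share reads, a sum over a type is the value least affected by how those reads were divided among copies. With the genes that have introns included, the log2 ratio of the type sums was -0.94 for H2A, -0.69 for H2B, -0.80 for H3 and -0.41 for H4, and 0.20 for H3.3. For H3.3 the sums were 551 and 529 CPM with OP50 and 616 and 623 CPM with 2004.

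Gene by gene, counts were tested with edgeR's quasi-likelihood test over all 12506 genes that reached 0.5 CPM in 2 or more samples, with Benjamini-Hochberg adjustment, and genes were called that changed by more than 2-fold with an adjusted p-value below 0.1. Of the 72 histone genes, 59 were tested. With 2004, 26 of them were lower and 1 was higher, and among all tested genes 14.8% were called lower and 7.55% higher. Without OP50 replicate 1 the count of lower genes was 16, and without 2004 replicate 1 the count of higher genes was 0. At any fold, 31 histone genes had an adjusted p-value under 0.1 with a lower level with 2004, against 25.2% of all tested genes. In 41 of the 59, both 2004 samples lay below both OP50 samples, which was so for 33.7% of all tested genes, and in 8 both lay above, against 37.5%. The median log2 fold change of the tested histone genes was -0.84, with a range of -5.95 to 1.60, and that of all tested genes was -0.03. The filter weighs on these numbers. Of the tested histone genes, 17 reached 0.5 CPM in both OP50 samples and in neither 2004 sample, and 14 of these were called, whereas 36 reached it in all 4 samples, and 10 of these were called lower.

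By type, the genes called lower comprised 8 of 14 tested H2A genes, 8 of 13 H2B genes, 7 of 13 H3 genes and 3 of 14 H4 genes, where 14.8% of all tested genes were called lower. Copies that share a symbol in the Ensembl annotation were counted one by one here, among them H2A and H2B genes of the chromosome V loci described below. Of the 3 H3.3 genes 0 were called by edgeR, DESeq2 or limma-voom, and 0 had an unadjusted p-value under 0.05. *his-73*, the H3-like gene that was tested, was not called either. The 13 genes that were not tested had at most 0.718 CPM in any sample. *his-39*, an H2B gene with a short annotated reading frame, had 0 counts in all 4 samples, which allows up to 0.0594 to 0.0673 CPM. *his-70*, an H3-like gene, had 3 counts in OP50 replicate 2 and 0 in the others, and its neighbour *his-69* had 5 and 17 counts with OP50 and 5 and 9 with 2004. Both were too low for a comparison.

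**Figure D2:**
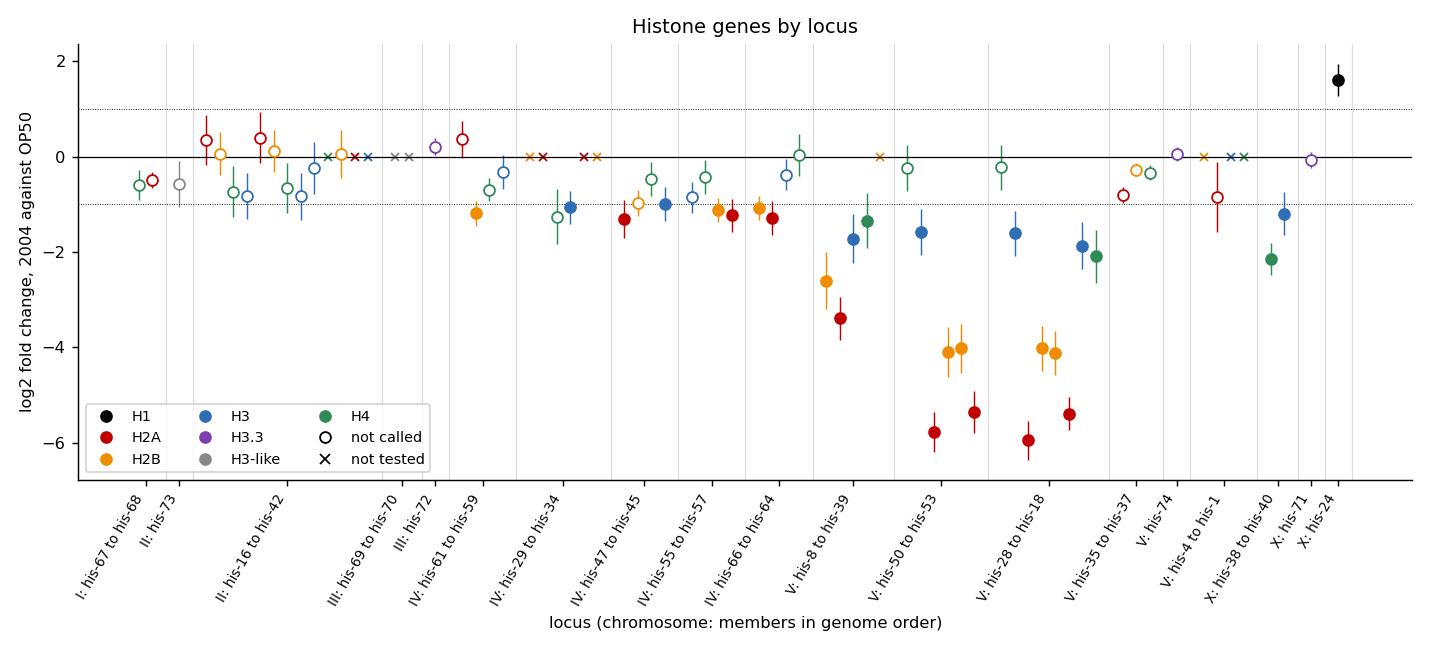
The log2 fold change of each histone gene, 2004 against OP50, with its standard error as a bar, in genome order and grouped by locus. Colours mark the histone type, filled points are called genes, open points are tested genes that were not called, crosses are genes that were not tested (drawn at 0), and dotted lines mark 2-fold. The lowest points, between -4.02 and -5.95, are the H2A and H2B genes of a pair of neighbouring loci on chromosome V, and the 10 tested genes of the *his-16* to *his-42* locus on chromosome II include no called gene.

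The lowest values came from a pair of loci on chromosome V (WBcel235 coordinates, Ensembl release 115). The first, chr V from 8847393 to 8854053, holds 6 genes from *his-50* to *his-53*. The second, chr V from 8889488 to 8898539, holds 8 genes from *his-28* to *his-18*. Together they carry 4 H2A, 4 H2B, 3 H3 and 3 H4 genes. All 14 of them consist of a single exon.

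The 4 H2A genes of these loci were nearly lost from the 2004 samples. *his-21* was covered by 311 and 374 counts with OP50 and by 7 and 4 counts with 2004, or 6.98 and 7.41 CPM against 0.151 and 0.0863 CPM. Its log2 fold change was -5.95 (SE 0.41, adjusted p = 5.0e-06), the largest fall among the 59 tested histone genes. *his-51* had 279 and 329 counts with OP50 and 7 and 4 with 2004, that is 6.26 and 6.51 CPM against 0.151 and 0.0863 CPM (log2 fold change -5.78, SE 0.42, adjusted p = 7.15e-06). In both genes the OP50 samples lay close together and the 2004 samples stood just above the level of 3 counts. *his-19* was the most abundant intronless H2A gene of chromosome V, with 397 and 483 counts (8.91 and 9.56 CPM) with OP50 and 11 and 10 counts (0.237 and 0.216 CPM) with 2004. Its mean was 9.24 ± 0.461 CPM with OP50 and 0.227 ± 0.0152 CPM with 2004 (SD, n = 2 each), a log2 fold change of -5.39 (SE 0.34, adjusted p = 3.47e-06). *his-53* had 199 and 258 counts with OP50 and 6 and 5 with 2004, with a log2 fold change of -5.35 (SE 0.43, adjusted p = 1.4e-05). For none of the 4 genes did the foods overlap, and leaving out any 1 sample left the log2 fold change of *his-21* between -6.33 and -5.65 and that of *his-19* between -5.42 and -5.34.

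The 4 H2B genes of the same loci, each the head-to-head partner of an H2A gene, fell as well, to a smaller degree. *his-20*, the partner of *his-19*, had 187 and 174 counts (4.2 and 3.45 CPM) with OP50 and 8 and 13 counts (0.173 and 0.281 CPM) with 2004, a log2 fold change of -4.11 (SE 0.46, adjusted p = 0.000112). *his-52*, the partner of *his-51*, had 112 and 109 counts with OP50 and 6 and 7 with 2004 (log2 fold change -4.09, SE 0.52, adjusted p = 0.000243). The 2 other H2B genes, *his-22* and *his-54*, named here after their values were seen, each had a log2 fold change of -4.02. In every one of these H2B genes, too, both 2004 samples were far below both OP50 samples. Summed over the 8 H2A and H2B genes, the level was 40.1 and 40.1 CPM with OP50 and 1.25 and 1.45 CPM with 2004, a 29.7-fold lower mean. Taken apart, the ratio was 29-fold for the *his-50* to *his-53* locus and 30.3-fold for the *his-28* to *his-18* locus. These are not 2 independent ratios, since the genes are copies that share symbols across the loci, as described below, and can share reads. With OP50, these loci supplied 34.4% and 40.7% of the counts of all intronless H2A genes, and with 2004 they supplied 2.05% and 1.72%. Their share of the intronless H2B counts went from 18.8% and 21.2% to 2.11% and 3.65%.

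The H3 and H4 genes of these 2 loci lay a few kilobases or less from those H2A and H2B genes and gave smaller fold changes. The 3 H3 genes, *his-49*, *his-27* and *his-17*, had log2 fold changes of -1.58, -1.61 and -1.87, and all were called, although *his-49* was not without 2004 replicate 1. Summed, they stood at 4.24 and 4.34 CPM with OP50 and 1.29 and 1.47 CPM with 2004, a 3.11-fold lower mean. Of the 3 H4 genes only *his-18* was called, with 39 and 46 counts with OP50 and 12 and 8 with 2004 (log2 fold change -2.09, SE 0.56). *his-50* had 42 and 54 counts with OP50 and 31 and 50 with 2004 (log2 fold change -0.24, SE 0.48), and *his-28* had 44 and 57 against 33 and 53 (log2 fold change -0.23, SE 0.47). The foods overlapped in these H4 genes, which stand head to head with the called H3 genes *his-49* and *his-27*. These 2 pairs are copies that share symbols, as described below, and are not independent of each other. Over the 6 H3 and H4 genes the log2 ratio of the summed CPM was -1.09, against -4.89 over the 8 H2A and H2B genes, and leaving out any 1 sample gave -1.30 to -0.91 and -5.0 to -4.79.

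**Figure D3:**
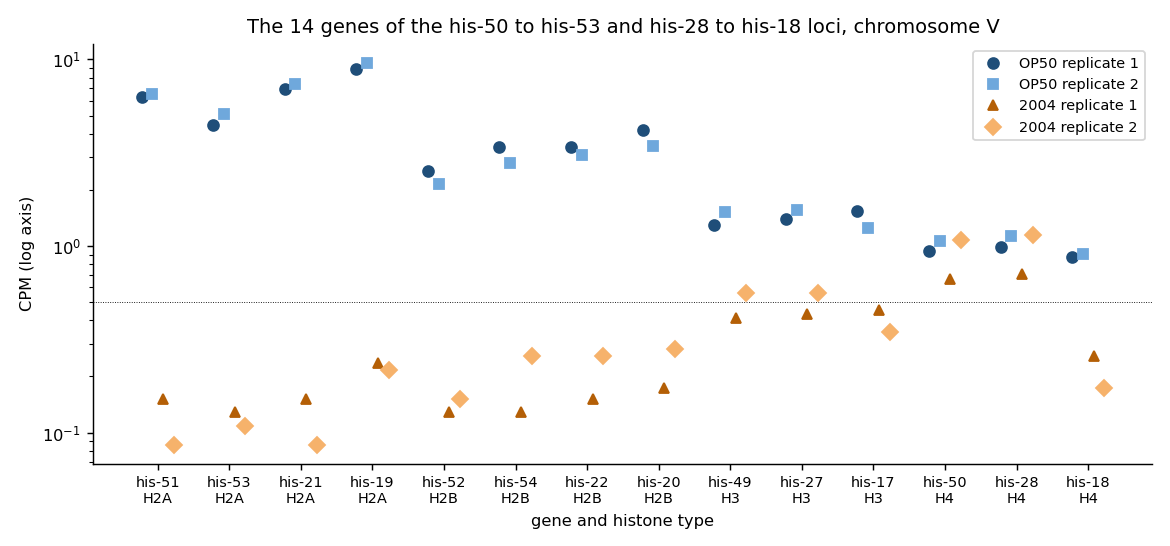
CPM of the 14 genes of the *his-50* to *his-53* and *his-28* to *his-18* loci on chromosome V in each of the 4 samples, on a log axis, ordered by histone type, with the filter of 0.5 CPM as a dotted line. All 8 H2A and H2B genes lie far above the line with OP50 and below it with 2004, the 3 H3 genes and *his-18* are lower with 2004 by a smaller distance, and the foods overlap in *his-50* and *his-28*.

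The copies within these loci cannot be fully separated. In the Ensembl annotation one symbol is shared among identical copies, so that 14 symbols cover 36 of the 72 histone genes. The 4 H2A genes carry one shared symbol and the 4 H2B genes another. The H3 genes *his-27* and *his-49* also share a symbol, as do the H4 genes *his-28* and *his-50*. When the copies under a shared symbol were added together before the fit, the H2A unit had a log2 fold change of -5.62 and the H2B unit one of -4.07. The unit of *his-27* and *his-49* had -1.60 and that of *his-28* and *his-50* had -0.23. Splitting of reads among the copies within a unit therefore does not alter these values, while reads exchanged with other, similar histone genes were not tested. Of the 11 other genes annotated within 5 kb of the 2 loci, 3 were tested, chosen here by position alone. *F07B7.8* and *K06C4.1*, whose CPM were almost equal in each sample, were called higher with 2004 (log2 fold change 2.42 and 2.43). Both were near the floor and passed the filter only through the 2004 samples. *F07B7.8* had 0.0898 and 0.396 CPM with OP50 and 1.01 and 1.66 CPM with 2004. *rpms-1* was not called (-0.16).

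Another chromosome V locus, from 8532715 to 8536716, showed the same order of types. These genes were named after their values were seen. *his-7* (H2A) had 153 and 156 counts (3.43 and 3.09 CPM) with OP50 and 20 and 10 counts (0.431 and 0.216 CPM) with 2004, a log2 fold change of -3.39 (SE 0.45, adjusted p = 0.000345). Its H2B partner *his-8* had 48 and 42 counts with OP50 and 9 and 6 with 2004 (log2 fold change -2.61, SE 0.60). The H3 gene *his-6* fell by 1.73 and the H4 gene *his-5* by 1.34 on the log2 scale. All 4 were called, and the foods did not overlap, but *his-5* (adjusted p = 0.0887) was no longer called when any 1 of the 4 samples was left out. Summed over this locus, the level was 6.31 and 5.54 CPM with OP50 and 1.19 and 0.971 CPM with 2004, 5.49-fold lower.

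On chromosome X, the H4 gene *his-38* and the H3 gene *his-40* form a divergent pair of their own. *his-38* had 167 and 239 counts (3.75 and 4.73 CPM) with OP50 and 52 and 40 counts (1.12 and 0.863 CPM) with 2004. Its log2 fold change of -2.14 (SE 0.34, adjusted p = 0.000903) was the largest fall of an H4 gene among the 14 tested. *his-40* had 1.91 and 2.02 CPM with OP50 and 1.23 and 0.561 CPM with 2004, a log2 fold change of -1.20 (SE 0.45, adjusted p = 0.0574). Its 2004 samples differed from each other more than its OP50 samples did, and it was not called without OP50 replicate 1 or without 2004 replicate 2.

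The 4 core clusters of chromosome IV that begin with *his-61*, *his-47*, *his-55* and *his-66* each hold 1 gene of every core type. Their summed levels were 1.58-fold, 1.81-fold, 1.89-fold and 1.71-fold lower with 2004, in that order. Their H2B genes were the most abundant intronless H2B genes. *his-58* had 665 and 535 counts (14.9 and 10.6 CPM) with OP50 and 291 and 276 counts (6.28 and 5.96 CPM) with 2004, or 12.8 ± 3.06 against 6.12 ± 0.228 CPM (SD, n = 2 each). Its log2 fold change was -1.13 (SE 0.25, adjusted p = 0.00636). *his-66* had 642 and 519 counts with OP50 and 294 and 271 with 2004 (log2 fold change -1.08, SE 0.25, adjusted p = 0.00773). For these genes OP50 replicate 1 was well above OP50 replicate 2, and both 2004 samples were lower still. Summed over the 4 clusters, H2B was 53.8 and 38.7 CPM with OP50 and 23.5 and 21.6 CPM with 2004, 2.05-fold lower, and H2A was 1.81-fold lower, H3 1.44-fold and H4 1.36-fold. Of the 16 genes, 7 were called lower, namely 3 H2A, 3 H2B and 1 H3 gene. Without OP50 replicate 1 none of these 7 was called, and the log2 fold change of *his-58* was -0.75 and that of *his-66* was -0.71.

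Not every gene of these clusters was lower. *his-61* (H2A), the divergent partner of the called H2B gene *his-62*, had 82 and 80 counts with OP50 and 137 and 77 with 2004, so that the foods overlapped (log2 fold change 0.36, SE 0.39). *his-62* had 642 and 518 counts with OP50 and 256 and 267 with 2004 (log2 fold change -1.19, SE 0.26). Both were named after their values were seen. The most abundant H3 and H4 genes of these clusters were not called. The H3 genes *his-59* and *his-63* overlapped between the foods (log2 fold change -0.32 and -0.39), and *his-55*, at 3.86 and 3.25 CPM with OP50 and 2.16 and 1.94 CPM with 2004, had a log2 fold change of -0.85 (adjusted p = 0.0565) and did not reach 2-fold. *his-60* (H4) stood at 10.8 and 8.36 CPM with OP50 and 6.47 and 5.91 CPM with 2004 (log2 fold change -0.69, SE 0.25, adjusted p = 0.0477), below both OP50 samples by less than 2-fold.

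Another chromosome IV locus, from 8331044 to 8336340, holds 6 genes from *his-29* to *his-34*, which summed to 4.83 and 3.8 CPM with OP50 and 2.16 and 1.94 CPM with 2004, 2.1-fold lower. All 6 had both 2004 samples below both OP50 samples in CPM, which was so for 33.7% of all tested genes. They are not 6 separate values, since *his-29* and *his-34* had identical counts, as did *his-30* and *his-33*. *his-30* and *his-33* had 3 counts or fewer throughout. They had 2 counts each in OP50 replicate 1 and in 2004 replicate 1, so the order of these samples came from library size alone. Only the H3 gene *his-32* and its H4 partner *his-31* were tested, and both were named after their values were seen. *his-32* had 153 and 142 counts with OP50 and 74 and 70 with 2004 (log2 fold change -1.07, SE 0.35, adjusted p = 0.0326) and was called, though not without OP50 replicate 1 or 2004 replicate 1. *his-31* had 26 and 26 counts against 12 and 10 (log2 fold change -1.26, SE 0.58, adjusted p = 0.11) and was not called.

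The intronless loci of chromosomes I and II differed less. On chromosome I, *his-68*, the most abundant intronless H2A gene, had 1299 and 1319 counts (29.2 and 26.1 CPM) with OP50 and 972 and 922 counts (21 and 19.9 CPM) with 2004, a log2 fold change of -0.49 (SE 0.16, adjusted p = 0.0339) that was under 2-fold. Its H4 partner *his-67* had 7.72 and 4.63 CPM with OP50 and 4.38 and 4.23 CPM with 2004 (log2 fold change -0.59, SE 0.32, adjusted p = 0.161). On chromosome II, the largest locus held 13 genes from *his-16* to *his-42* over 10.94 kb, 10 of them tested and 0 called by edgeR, DESeq2 or limma-voom, with 0 at an unadjusted p-value under 0.05. Its summed level was 8.66 and 8.02 CPM with OP50 and 7.38 and 7.53 CPM with 2004, 1.12-fold lower. Within it the tested H2A and H2B genes had log2 fold changes between 0.05 and 0.40 and the tested H3 and H4 genes between -0.83 and -0.24. The order of these estimates was the reverse of that in the chromosome V loci. It is not resolved here, since the standard errors were 0.44 to 0.53. The levels were 0.41 to 1.1 CPM per gene and sample, where counts lay between 19 and 51. On chromosome V, *his-3* was the only tested gene of a 4-gene locus and its foods overlapped (log2 fold change -0.84, SE 0.73).

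Across divergent pairs, the change of an H2B gene followed that of its H2A partner over a wide range, whereas the changes of H3 and H4 partners covered a narrower one. In the 12 H2A-H2B pairs with both genes tested, 7 had both genes called lower and 2 had 1 called. The median difference between partners was 0.66 on the log2 scale and the largest was 1.93, between *his-21* and *his-22*. In the 12 H3-H4 pairs with both genes tested, 3 had both called and 4 had 1 called, with a median difference of 0.40 and a largest difference of 1.39, between *his-27* and *his-28*. Across pairs, Pearson's r was 0.97 for H2A-H2B and 0.44 for H3-H4. These are descriptions over 12 pairs each, which share the same 4 samples and include near-identical copies, and the chromosome V pairs set most of the range for H2A-H2B.

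**Figure D4:**
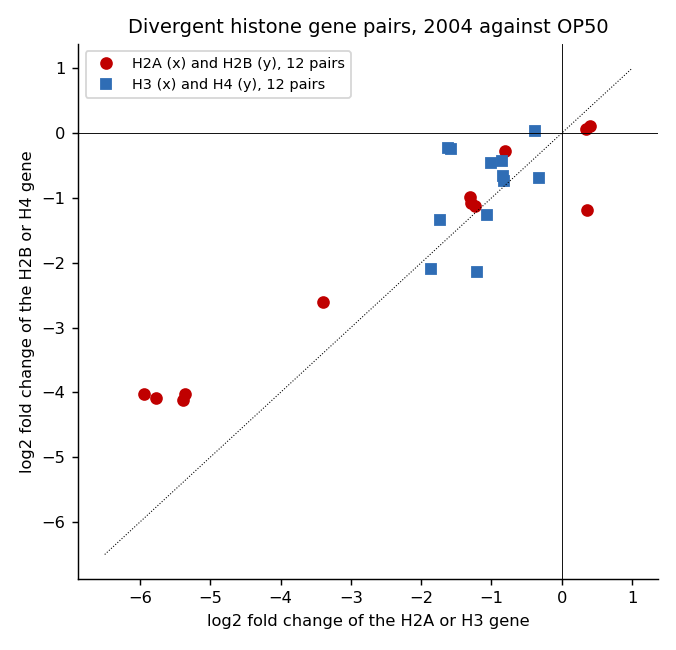
The log2 fold change of the H2A gene against that of its H2B partner (circles, 12 pairs) and of the H3 gene against its H4 partner (squares, 12 pairs), with the line of equal change dotted. The 4 circles at the lower left are the pairs of the *his-50* to *his-53* and *his-28* to *his-18* loci and lie above the line, since the H2A gene fell further than the H2B gene. The circle farthest below the line is *his-61* with *his-62*.

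Except for *his-71*, the genes with introns had more CPM per kb of annotated exon than any intronless histone gene. Values of the intronless genes may depend on any selection of poly(A) RNA, which is not given, and on the division of reads among copies. Neither was tested. Averaged over the 4 samples, *his-72* had 552 CPM per kb of annotated exon, *his-74* 362, *his-35* 178, *his-37* 121, *his-41* 93.1 and *his-24* 80.4, followed by the intronless *his-68* at 62.6. *his-71* had 29.2. By contrast, the most abundant gene of the chromosome V loci, *his-19*, averaged 12.3 CPM per kb.

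The H3.3 genes, which encode the replacement form of H3, were not called. *his-72* had 333 and 309 CPM with OP50 and 373 and 395 CPM with 2004 (log2 fold change 0.20, SE 0.18, adjusted p = 0.377). *his-74* had 201 and 202 CPM with OP50 and 225 and 211 CPM with 2004 (log2 fold change 0.06, SE 0.15, adjusted p = 0.765). In these 2 genes both 2004 samples were the higher ones, without passing the test. *his-71* had 16.9 and 17.9 CPM with OP50 and 17.2 and 16.9 CPM with 2004, and the foods overlapped (log2 fold change -0.08, SE 0.17). *his-72* alone supplied 32.2% and 32.3% of all histone counts with OP50 and 36.4% and 41.6% with 2004. *his-73*, a short H3-like gene, had 0.853 and 0.931 CPM with OP50 and 0.583 and 0.647 CPM with 2004 (log2 fold change -0.58, SE 0.48), and its exons overlap those of another gene on the same strand.

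*his-35*, *his-41* and *his-37* lie together on chromosome V from 9544659 to 9547607 and encode H2A, H2B and H4 from genes with introns. *his-35* had 4922 and 5648 counts (110 and 112 CPM) with OP50 and 2684 and 3401 counts (57.9 and 73.4 CPM) with 2004. This is 111 ± 0.953 against 65.6 ± 11 CPM (SD, n = 2 each), a log2 fold change of -0.80 (SE 0.16, adjusted p = 0.00358) that was under 2-fold. *his-41*, its divergent H2B partner, had 50.8 and 52.6 CPM with OP50 and 41.2 and 47.1 CPM with 2004 (log2 fold change -0.27, SE 0.14, adjusted p = 0.144). *his-37* had 59.4 and 54.5 CPM with OP50 and 43.1 and 50.2 CPM with 2004 (log2 fold change -0.34, SE 0.15, adjusted p = 0.102). In all 3 genes the 2004 samples were the lower ones without overlap, and *his-35* alone passed the adjusted p-value.

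*his-24*, the linker histone gene on chromosome X, was the single histone gene called higher. It had 1794 and 1503 counts (40.3 and 29.8 CPM) with OP50 and 7650 and 2867 counts (165 and 61.9 CPM) with 2004. Both 2004 samples were above both OP50 samples, but they stood far apart, with a mean of 113 ± 73 CPM against 35 ± 7.43 CPM (SD, n = 2 each). The log2 fold change was 1.60 (SE 0.34, adjusted p = 0.00446). Without 2004 replicate 1 it was 0.82 and *his-24* was not called, and without 2004 replicate 2 it was 2.12. Non-coding genes are annotated on the opposite strand over its exons, and no source says that strand was used in counting.

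The other linker histone genes, named hil, were set beside *his-24*. All 8 were listed, 6 were tested and 4 were called higher with 2004, where 7.55% of all tested genes were called higher. Their median log2 fold change was 1.42, against -0.03 over all tested genes. *hil-5* had 94.1 and 68.5 CPM with OP50 and 353 and 320 CPM with 2004 (log2 fold change 1.98, SE 0.20, adjusted p = 6.44e-05). *hil-2* had 32.6 and 15.8 CPM against 84.5 and 60.5 CPM (1.49 on the log2 scale, SE 0.30, adjusted p = 0.00352). In both genes the foods did not overlap, and the OP50 samples of *hil-2* differed from each other by more than those of *hil-5*. *hil-3*, at 7.59 and 6.65 CPM with OP50 and 21.9 and 15.9 CPM with 2004, rose by 1.34, and *hil-8*, at 0.584 and 0.673 CPM against 2.89 and 4.81 CPM, rose by 2.58 on the log2 scale. *hil-4*, with 364 and 301 CPM against 412 and 391 CPM, was not called (0.21, SE 0.19, adjusted p = 0.398), nor was *hil-1* (0.25, SE 0.23, adjusted p = 0.407). *hil-6* and *hil-7* were below the filter.

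**Figure D5:**
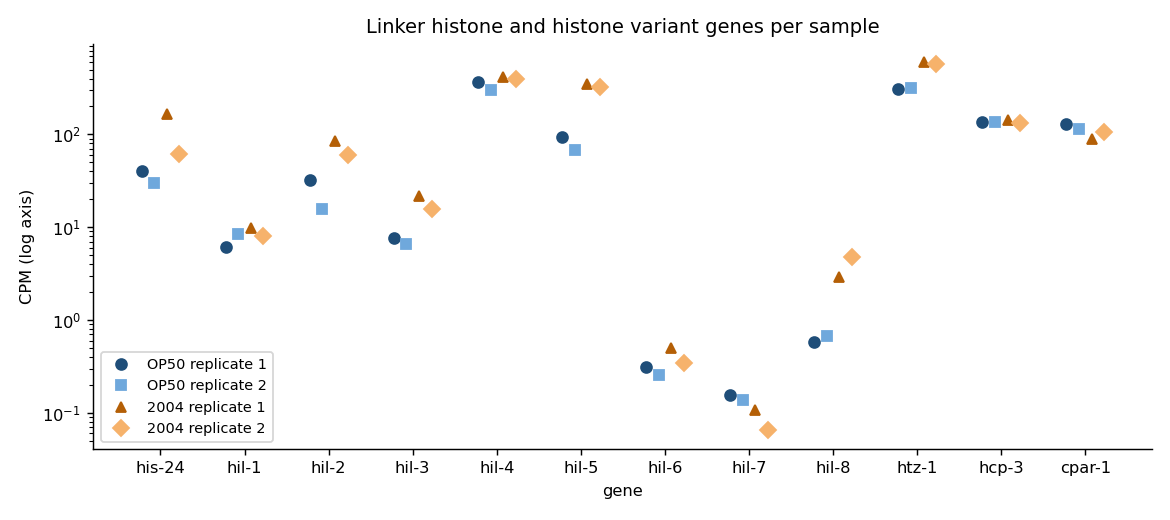
CPM of *his-24*, the 8 hil genes and the variant genes *htz-1*, *hcp-3* and *cpar-1* in each of the 4 samples, on a log axis. Both 2004 samples lie above both OP50 samples for *his-24*, *hil-2*, *hil-3*, *hil-5*, *hil-8* and *htz-1* and, by a smaller distance, *hil-4* and *hil-6*, and all 4 samples lie between 134 and 144 CPM for *hcp-3*.

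Of the histone variants outside the his- names, *htz-1*, which encodes H2A.Z, had 310 and 319 CPM with OP50 and 597 and 568 CPM with 2004. Its log2 fold change of 0.84 (SE 0.17, adjusted p = 0.00407) was under 2-fold, and it was opposite in sign to that of *his-35* and of the summed H2A genes. *hcp-3*, the centromeric H3 gene, had 136 and 136 CPM against 144 and 134 CPM (-0.02 on the log2 scale, SE 0.14). Its paralogue *cpar-1* had 130 and 115 CPM against 90.1 and 105 CPM (-0.38, SE 0.16, adjusted p = 0.0845).

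Of the tested genes that handle or modify histones or replicate DNA, 0 were called lower by edgeR, DESeq2 or limma-voom. By edgeR, 14.8% of all tested genes were called lower and 7.55% higher, and the called counts of the lists below are to be read beside these shares. *cdl-1*, which encodes the protein that binds the stem-loop of histone mRNA, had 335 and 300 CPM with OP50 and 340 and 333 CPM with 2004 (log2 fold change 0.03, SE 0.17, adjusted p = 0.916). With it, 14 genes for histone chaperones and histone mRNA binding were tested and 0 were called higher by any of these tools. By edgeR, 5 had an adjusted p-value under 0.1 with a higher level and 1 with a lower level, the same numbers as at an unadjusted p-value under 0.05, and the median log2 fold change was 0.22. *xnp-1*, an ATRX-family chromatin remodeler, rose by 0.95 and *hmg-3*, a subunit of the FACT complex, by 0.90 on the log2 scale. In the DNA replication list, 1 of 20 tested genes was called higher, *orc-1* of the origin recognition complex (32.2 and 35.2 CPM against 103 and 79.6 CPM, log2 fold change 1.39, SE 0.13, adjusted p = 4.24e-05). Of the 20, 13 had an adjusted p-value under 0.1 with a higher level with 2004 and 0 with a lower level, where 23.9% of all tested genes had a higher level at that threshold, and the median was 0.52. *orc-3* rose by 0.85 on the log2 scale, and *pcn-1*, the sliding clamp of DNA polymerases, named after its values were seen, stood at 0.00 (SE 0.24). Of the 22 histone modifying enzymes tested, 1 was called higher, *utx-1*, an H3K27 demethylase (1.02 on the log2 scale, SE 0.15, and 0.95 and not called without 2004 replicate 1). Of the 22, 15 had an adjusted p-value under 0.1 with a higher level and 0 with a lower level, and the median was 0.66. *met-1*, an H3K36 methyltransferase, rose by 0.97 on the log2 scale. Taken as a whole, the 20 replication genes summed to 5484 and 4742 CPM with OP50 and to 7332 and 6857 CPM with 2004. Of the 20, 18 had a log2 fold change above 0. The summed single-exon histone genes were lower with 2004, and a link between these sums was not tested. Single genes varied, and 25 of the 51 tested single-exon genes were called lower while 7 had a log2 fold change above 0.

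Marker genes of tissues also moved with the food. Germline markers summed to 1952 and 1767 CPM with OP50 and 2533 and 2473 CPM with 2004, and oocyte markers to 9467 and 7349 against 11228 and 11158 CPM. By edgeR, DESeq2 or limma-voom 0 of these 6 and 7 markers were called, and by edgeR 2 germline markers and 1 oocyte marker were higher and 1 germline marker was lower at an unadjusted p-value under 0.05. Zygotic markers of early embryos summed to 3.77 and 4.51 against 9.47 and 7.96 CPM, and 1 marker was at 0. Of the 9, 4 were tested and 3 called higher. Among all tested genes, 7.55% were called higher and 14.8% lower. *tbx-38*, 1 of the 3, passed the filter only through the 2004 samples (0.202 and 0 against 0.755 and 0.626 CPM). *end-1* was tested and not called (log2 fold change -0.16). Sperm markers were at 3.68 and 3.35 against 1.68 and 3.45 CPM over 9 genes, of which 3 were tested (2 called lower, 1 higher) and 1 was at 0. Those called lower, *smz-2* and *spe-11*, passed the filter only through the OP50 samples. Body muscle markers were lower with 2004, at 393 and 348 CPM against 1174 and 1064 CPM with OP50, with 3 of 4 called, and epidermis markers were at 485 and 428 CPM with OP50 and 264 and 285 CPM with 2004. The epidermis sum was almost all *col-19*, the 1 marker of 4 that was tested, and *dpy-7* was higher with 2004 at 0.292 and 0.139 against 1.29 and 0.496 CPM. Neuron markers were at 264 and 266 against 229 and 231 CPM, mostly from *snb-1*, with *unc-119* higher with 2004 (log2 fold change 0.77, adjusted p = 0.0218) and *egl-3* lower (-0.78, adjusted p = 0.00126). Intestine markers, mostly *vit-2* and *vit-6*, overlapped between the foods, with 58794 and 65075 CPM with OP50 and 55169 and 63377 CPM with 2004, but *act-5* (log2 fold change 0.93, adjusted p = 0.00163) and *ifb-2* (0.58, adjusted p = 0.00979) were higher with 2004. Their part in the histone values was not tested.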

How the data were processed

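Total RNA of entire N2 animals was sequenced on an Illumina instrument. According to the study's methods and the submitters' processing notes, the authors checked reads with FastQC 0.11.8, trimmed them with Trim Galore 0.6.4, aligned them to WBcel235 with HISAT2 2.1.0, sorted the alignments (SAMtools 1.7) and estimated counts with StringTie 2.1.1. The annotation release, the strandedness and any selection of poly(A) RNA are not given in the sources used here. The deposited values are the authors' estimated counts per transcript, not normalized. They are whole numbers, so no rounding was needed.

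Transcripts were summed per sequence name and joined to WBcel235 genes (Ensembl release 115, symbols of copies from RefSeq's gene table by locus tag). Of 57834 transcripts, 57509 (99.4%) matched. CPM were computed on each library's total count, and 0 other columns of per-sample values were present. Of the 72 histone genes, 70 had 1 listed transcript, and 10 have exons that overlap those of another gene and may share counts with it. *his-29* and *his-34*, and *his-30* and *his-33*, had identical counts in all 4 samples. Within a food, the 2 samples were further apart than counting noise (chi-square divided by its degrees of freedom was 58.6 with OP50 and 27.0 with 2004), so none was counted as a repeat.

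Genes that reached 0.5 CPM in 2 or more samples were tested with edgeR 4.0.16 in R 4.3.3 (TMM, glmQLFit and glmQLFTest, no covariates, Benjamini-Hochberg over all tested genes), with the study's thresholds of an adjusted p-value under 0.1 and over 2-fold. Standard errors come from the quasi-likelihood F statistic, and fold changes of genes at a few counts depend in part on the prior count. The common dispersion corresponded to a coefficient of variation of 17.7%. The scripts were tested on simulated data. Alternatives were RLE size factors, library size alone, DESeq2 1.42.0, limma-voom (limma 3.58.1), 3 other filters, an adjusted p-value under 0.05, glmTreat, a replicate block, each sample left out in turn, and, added after seeing the data, a crossed block and summed copies.

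Members and lists were chosen with earlier results of these data known. The genes named are *his-24* and *his-69* to *his-74*, the 3 most abundant genes of H2A, H2B, H3 and H4, the 6 largest rises and falls among called genes without overlap, *cdl-1*, the hil genes and the variants, and the 2 genes with the smallest adjusted p-value of each other list. Others were named after their values were seen or through their position. Sequences were not printed here.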

Additional observations from a re-analysis of the deposited data

How the results depend on the processing

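Of the 26 histone genes called lower, 23 to 25 were called again with RLE size factors, library size alone, DESeq2, limma-voom, the 2 looser filters, an adjusted p-value under 0.05 or the replicate block, which gave 24. Limma-voom called 1 other. Requiring 10 counts in every sample removes genes that fell to a few counts, and gave 18. Testing against 2-fold with glmTreat gave 11 lower and 0 higher. Over all tested genes, glmTreat called 670 lower and 333 higher, against 1851 and 944. With copies of one shared symbol summed, 15 of 41 units were lower. The 26 genes fall into 16 units, of which that of *his-45* (-0.92) was lost. *xnp-1* and *met-1* passed 2-fold with library size alone. Leaving out 1 sample gave 16 to 27 lower and 0 to 1 higher, with 16 lower without OP50 replicate 1 and 0 higher without 2004 replicate 1. *his-32* lost its call without OP50 replicate 1 or 2004 replicate 1, and *his-45* without OP50 replicate 1 or 2004 replicate 2. With 1 sample left in a food, that sample is assumed to vary like the other food. 11 of the 27 called genes kept their call in every alternative that tested them, namely *his-7*, *his-8*, *his-19*, *his-20*, *his-21*, *his-22*, *his-38*, *his-51*, *his-52*, *his-53* and *his-54*. Among these, only *his-7*, *his-19* and *his-38* had 10 counts in every sample, and the others were not tested with that filter. The log2 ratio of the H3.3 sums was 0.14 with TMM library sizes in place of 0.20. No other type sum moved by more than its spread, and 0 called genes changed direction. The labels do not say that a replicate number marks a shared culture, and the correlation of the deviations of same-numbered samples was -0.14. The crossed pairing, added after seeing the data, also gave 24.
Precision is limited by 2 samples per food, by 4 to 20 counts per sample with 2004 for the H2A and H2B genes of the chromosome V loci of *his-7*, *his-51* and *his-19*, and by reads shared among near-identical copies.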
